A study of Mus musculus with 3 samples.

Results

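Cells of the mouse fracture callus that carried smooth muscle actin genes together with the tendon factor Scx are described here. They numbered 472 at day 10 and 810 at day 14 after fracture, 1282 of the 30888 cells deposited for the series and of the 16446 cells of these 2 libraries that were within the limits on quality. The series holds 1 library each from day 7, day 10 and day 14 after femoral fracture in untreated C57BL/6 mice. Periosteal callus was cleaned of marrow, digested with collagenase and sorted for live cells negative for CD45, CD31 and TER119. The number of animals behind a library is not given in the sources used here, and with 1 library a day no difference has a replicate check. All intervals therefore cover counting error within a library only, no p-value is given, and day and library cannot be told apart.

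The members were chosen by their own counts of unique molecular identifiers (UMIs), each UMI standing for 1 captured transcript. A member had 500 to 5000 detected genes, at most 10% of UMIs from mitochondrial genes, at most 5% from hemoglobin genes and no UMI of Ptprc, which encodes the leukocyte antigen CD45. It also had at least 10 UMIs of Aspn per 10,000 UMIs of the cell, at least 10 per 10,000 of Acta2, Tagln and Actg2 together, at least 1 UMI of Scx, and under 20 per 10,000 of the pericyte gene Rgs5. Aspn encodes asporin, a small leucine-rich proteoglycan of fibrous tissue. The main comparison cells were the contractile-low cells, which met the same limit on Aspn but had under 10 per 10,000 of the 3 contractile genes (1544 cells at day 10 and 3108 at day 14). Levels of the 7 genes that the choice used are a description of the choice and not a result.

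Acta2, Tagln and Actg2 encode smooth muscle alpha-actin, transgelin and smooth muscle gamma-actin. Besides vascular smooth muscle and pericytes, myofibroblasts use these genes, and such cells pull on and stiffen the matrix of healing tissue. Their transcription is known to depend on serum response factor (SRF), which binds a DNA element called the CArG box and is driven by actin assembly. Scx encodes scleraxis, a basic helix-loop-helix factor of tendon and ligament progenitors. Postn encodes periostin, a matrix protein of the periosteum, and marks the periosteal progenitors that the study followed.

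The depth of the members was higher than that of the cells they were compared with. Median UMIs per cell were 17322 in members against 14862 in contractile-low cells at day 10, and 16742 against 13898 at day 14. The day 7 library differed from the others, with a Ptprc UMI in 93.6% of its cells within the limits on quality (0.0910% at day 10 and 1.76% at day 14), 26 Aspn-rich cells and 3 cells that met the members' rule, and it entered no comparison. Between 29 and 42 cell barcodes were shared by each pair of libraries, and no barcode was a member in both. Levels below are UMIs summed over the cells of a group, scaled to the same total of 1000000 UMIs for every group (CPM).

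Members made up 21.7% (95% interval 20 to 23.5%) of the 2174 Aspn-rich cells at day 10 and 19.3% (95% interval 18.1 to 20.6%) of the 4191 at day 14. Within them the 3 contractile genes together ranged from 10.0 to 143 UMIs per 10,000 at day 10, with a median of 26.5, and up to 193 at day 14, with a median of 23.5. UMIs of all 3 genes were found in 60.8% of members at day 10 and 59.0% at day 14. Actg2 was the one most often missing, being found in 62.3% and 63.0%. The median member had 4 UMIs of Scx at both days, and 20.8% of members at day 10 and 18.3% at day 14 rested on a single Scx UMI.

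Postn and Lrrc15 were not used by the rule. Both were tied to these cells with earlier results of these data known, so their levels are a description and not a check. Postn had a UMI in 99.8% of members at day 10 and 99.6% at day 14. Its level was 5117 against 2535 CPM at day 10 and 4339 against 2148 CPM at day 14, a log2 ratio of 1.01 at day 10 and 1.01 at day 14. Postn was thus about as much higher in members at each day, and it was also present in nearly all contractile-low cells (98.7% and 97.9%). A Postn UMI was also found in 94.4% and 94.5% of Rgs5-rich cells and in 86.3% and 78.0% of Acan-rich cells, both described below. Its presence alone thus does not set the members apart. Lrrc15, a leucine-rich repeat membrane protein of activated fibroblasts (chr16:30269302-30283256, mm10), was at 299 against 71.1 CPM at day 10 and 286 against 89.9 CPM at day 14. Its log2 ratio was 2.07 (95% interval 1.98 to 2.17) at day 10 and 1.67 (95% interval 1.61 to 1.74) at day 14. With every cell thinned at random to 5000 UMIs, Lrrc15 had a UMI in 63.0% (58.4 to 67.4%) of members and 19.8% (17.8 to 21.9%) of contractile-low cells at day 10, and in 60.8% (57.2 to 64.2%) and 26.6% (25 to 28.3%) at day 14. Acan-rich cells, with at least 10 UMIs per 10,000 of this cartilage proteoglycan gene and under the Aspn limit, gave 2.06% and 2.64% after the same thinning, with median depths of 19406 and 19165 UMIs before it. Scx-zero cells, which met the members' rule but had no Scx UMI, gave 49.6% (40.5 to 58.7%) and 52.7% (45.3 to 60.0%). Lrrc15 was thus not particular to the contractile cells with Scx.

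Myh11 and Mcam, which define mural cells, were at or near 0 in the members, while some other genes of the mural lists were not. Rgs5-rich cells, used here for comparison, were all cells at or above the Rgs5 limit, whatever their Aspn (71 at day 10 and 200 at day 14). Myh11, the smooth muscle myosin heavy chain, had 0 UMIs in members at day 10 and 2 at day 14, against 238 and 243 CPM in the Rgs5-rich cells of the same libraries. Mcam, the pericyte surface protein CD146, was at 1.61 and 2.09 CPM in members against 380.4 and 277 CPM in Rgs5-rich cells. The 14 genes on a list for mature vascular smooth muscle summed to 181 and 144 CPM in members, 88.2 and 90.8 CPM in contractile-low cells, and 1240.2 and 1362 CPM in Rgs5-rich cells. Of them, Myh11, Myocd, Actc1 and Rergl were at 0 in members at day 10, and Actc1 and Rergl at day 14, while Cnn1, also on this list, was at 63.1 and 39.0 CPM. The 14 pericyte genes summed to 457 and 446 CPM in members, 572 and 646 CPM in contractile-low cells, and 4848 and 4894 CPM in Rgs5-rich cells. Ebf1, a factor that fibroblasts also express, gave 158 and 170.5 CPM of the members' sums, and Cspg4 44.8 and 46.3 CPM. On both lists the members' sums were nearer to those of contractile-low cells than to those of Rgs5-rich cells. Members had to be under the Rgs5 limit and Rgs5-rich cells at or above it. The choice thus fixes this contrast in part, and nothing on identity is read from it. Endothelial genes (10 on the list) summed to 8.57 and 6.05 CPM in members, and skeletal muscle genes (13) to 17.6 and 19.0 CPM.

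**Figure D1:**
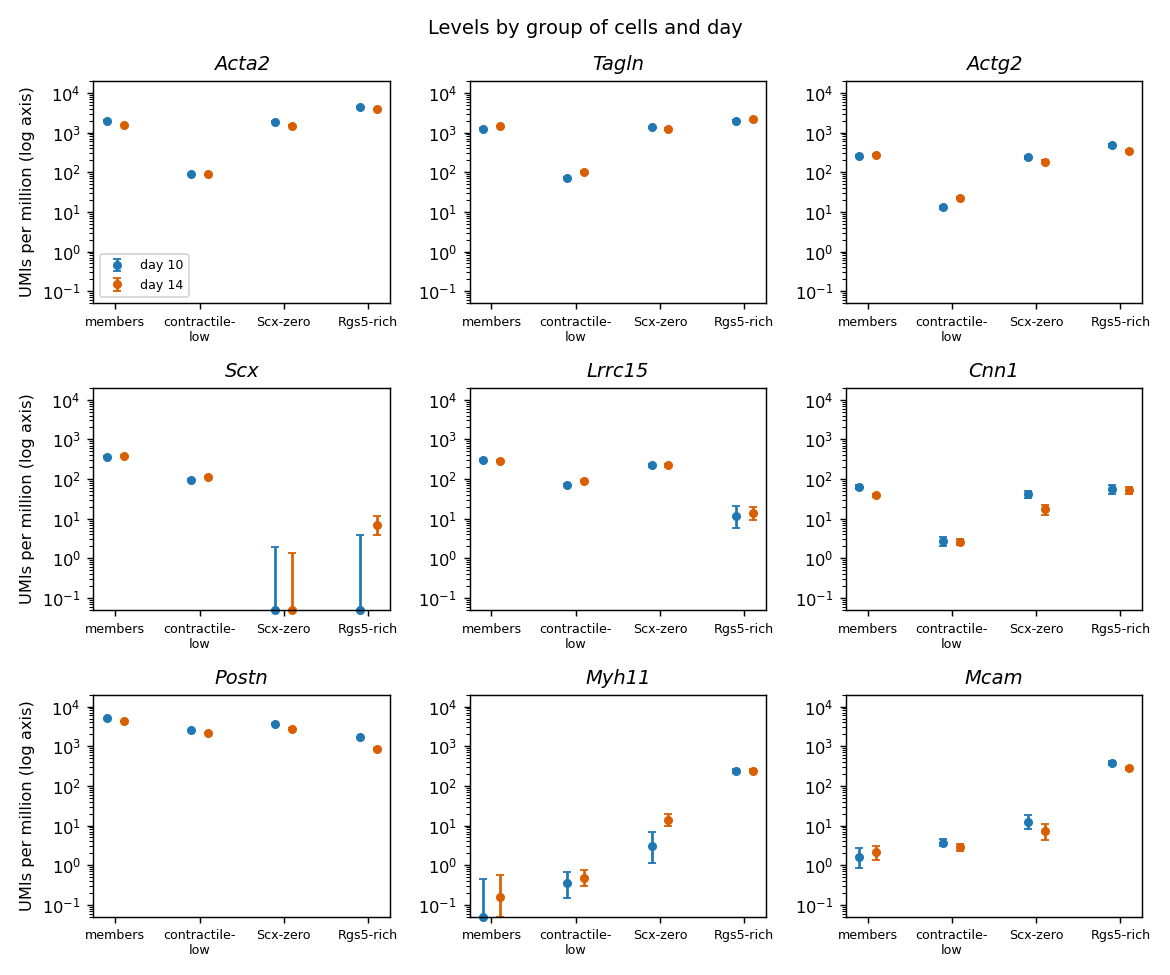
Levels (CPM, log axis) of 9 genes in members, contractile-low cells, Scx-zero contractile cells and Rgs5-rich cells, with blue points for day 10 and orange for day 14. Bars are exact 95% Poisson intervals for counting error, and a level of 0 sits on the bottom line. Lrrc15 and Postn were highest in members, while Myh11 and Mcam were high only in the Rgs5-rich cells among these 4 groups.

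The first question was what else differed between contractile and contractile-low cells that shared Aspn. The contractile genes outside the rule were higher in the members as a group, cartilage genes were lower, and no tendon gene was counted as higher. The groups were split on contractile genes, so the choice fixes the first of these in part. A gene was counted as higher or lower where it differed at least 1.5-fold in the same direction at both days, among genes averaging at least 10 CPM. The average was over both groups and both days, so a gene near 0 in either group could be compared only through the other. Of 7697 genes compared, 162 were higher (2.1%) and 218 lower (2.83%). The median log2 ratio over all of them was 0.06 at day 10 and 0.02 at day 14. With Scx required of the comparison cells too (46.7% of contractile-low cells had a Scx UMI at day 10 and 52.3% at day 14), 113 genes were higher and 169 lower, and 99 and 161 of these were among the 162 and 218. At 2-fold, 25 were higher and 84 lower.

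Of 35 actomyosin genes on the contractile list, 27 were expressed highly enough to be compared. Of these, 20 were higher in members and none was lower, with a list median of 0.99 at day 10 and 0.78 at day 14. Acta2, Tagln and Actg2, on which the groups were split, are genes of the same kind. The direction of the list is thus a description of the members more than an independent result. Cnn1, the smooth muscle calponin (chr9:22099216-22109630, mm10), differed most of all 7697 genes by the smaller of its 2 ratios, at 63.1 against 2.68 CPM at day 10 and 39.0 against 2.56 CPM at day 14. Its log2 ratio was 4.56 (95% interval 4.17 to 4.96) at day 10 and 3.93 (95% interval 3.63 to 4.24) at day 14. In contractile-low cells Cnn1 was under 10 CPM at both days, as were Stmn4 and Il2rg, named below. Such genes were compared only through their level in members, and their rank rests in part on that. After thinning, Cnn1 had a UMI in 21.8% (18.1 to 25.8%) of members against 1.34% (0.819 to 2.06%) of contractile-low cells at day 10, so most members showed none at that depth.

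Myl9, the regulatory light chain of smooth muscle myosin, followed Cnn1, at 497 against 72.3 CPM at day 10 and 500.1 against 93.6 CPM at day 14. Tpm2, the beta-tropomyosin that lies along the actin filament, was at 1042 against 222 CPM at day 10 and 946 against 265 CPM at day 14. Csrp1, a LIM protein of actin bundles, had log2 ratios of 1.68 at day 10 and 1.48 at day 14. Links between filaments and adhesions were also higher. Vcl (vinculin) had ratios of 1.35 at day 10 and 1.09 at day 14, Zyx (zyxin) of 1.26 at day 10 and 0.99 at day 14 and Flna (filamin A) of 1.25 at day 10 and 0.83 at day 14. The cytoplasmic actins Actb and Actg1, which every cell uses, were higher too, with Actb at 5998 against 2895 CPM at day 10 and 5493 against 3081 CPM at day 14. Of the 7 compared genes that were not counted, Cnn3 (0.60 at day 10 and 0.53 at day 14), Mylk (0.82 at day 10 and 0.40 at day 14) and Myh10 (0.52 at day 10 and 0.37 at day 14) had positive ratios at both days. Nexn, Pdlim1 and Jph2, a filament, a LIM and a membrane junction protein of muscle cells, were among the 15 genes highest by the smaller of their 2 ratios, with log2 ratios at day 14 of 1.25, 1.10 and 1.18.

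**Figure D2:**
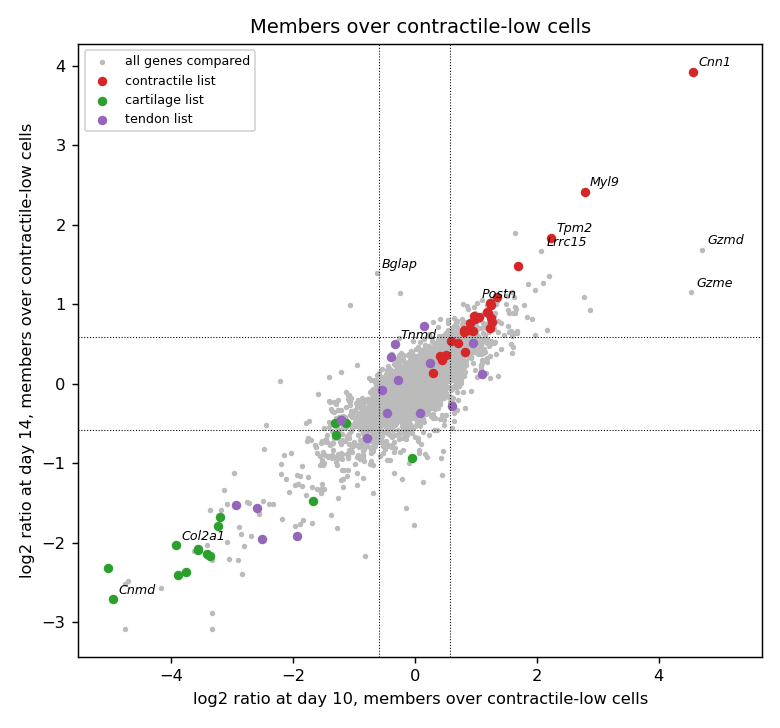
Log2 ratio of members over contractile-low cells at day 10 (horizontal) and day 14 (vertical) for 7697 genes (grey), with the contractile (red), cartilage (green) and tendon (purple) lists. Dotted lines mark 1.5-fold. Contractile genes lie at the upper right and cartilage genes at the lower left, while tendon genes are spread between them.

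Among transcription factors of the SRF pathway, 10 of 16 listed genes could be compared. Srf itself was the only 1 of them that was higher, at 16.6 against 9.73 CPM at day 10 and 13.3 against 7.60 CPM at day 14. Its coactivators Mrtfa and Mrtfb had ratios of 0.59 at day 10 and 0.06 at day 14 and of -0.30 at day 10 and -0.18 at day 14, and Myocd, the coactivator of mature muscle, had 0 UMIs in members at day 10. Among 16 genes compared of 20 known to follow the mechanosensitive factors YAP and TAZ, none was higher and Nt5e and Gadd45a were lower. Ccn2, a matricellular growth factor on that list, had ratios of 0.62 at day 10 and 0.25 at day 14, and Ccn1 of -0.15 at day 10 and 0.19 at day 14. Ankrd1, a stretch-responsive gene on that list, averaged under 10 CPM and was not among the 16, but it was at 25.5 against 1.43 CPM at day 10 and 1.01 against 0.162 CPM at day 14, with a log2 ratio of 4.16 (95% interval 3.62 to 4.73) and of 2.64 (95% interval 1.21 to 4.21). The day 14 value rests on 13 and 7 UMIs.

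The promoter windows of the contractile genes were searched for the CArG box because SRF is known to act through it. RefSeq windows of GRCm38.p6, from 250 bases before to 50 bases after each transcription start, were used on both strands of this palindromic motif, in its exact consensus of 2 C, 6 A or T and 2 G. A box was found in the windows of 6 of the 18 higher contractile genes that had a window (33.3%) and of 10 of 32 genes of the whole list (31.2%). All genes with a window gave 1.81% (488 of 27025), and the compared genes 1.66%. Among all genes that were higher in members it was 9.92% (12 of 121), and among those that were lower 1.23% (2 of 162). These shares are a description, and a match does not show binding. The windows of Acta2 and Lrrc15 held no exact box, and Tagln, Actg2 and Scx had no window in the table. The 7 boxes of the higher contractile genes are printed 5′ to 3′ with the gene, 10 bases on each side, and the box in capitals. Only exact matches to the consensus were kept, so the boxes had to be alike, and their likeness is not a result.
Myl9, chr2:156775293-156775322, strand +, box starting 161 bases before the start: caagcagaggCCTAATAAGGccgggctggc
Vcl, chr14:20929161-20929190, strand +, box starting 227 bases before the start: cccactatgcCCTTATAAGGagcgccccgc
Cnn2, chr10:79988534-79988563, strand +, box starting 56 bases before the start: cgcttccacgCCTTATAAGGacatttgctc
Myl6, chr10:128493040-128493069, strand -, box starting 50 bases before the start: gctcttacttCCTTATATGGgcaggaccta
Actg1, chr11:120348566-120348595, strand -, box starting 90 bases before the start: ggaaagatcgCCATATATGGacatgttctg
Fhl2, chr1:43163973-43164002, strand -, box starting 31 bases before the start: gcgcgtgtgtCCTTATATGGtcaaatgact
Fhl2, chr1:43196838-43196867, strand -, box starting 96 bases before the start: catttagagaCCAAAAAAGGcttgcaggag
Vcl and Cnn2 shared the same 10 bases, as did Myl6 and the first Fhl2 window.

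Of 20 genes known from myofibroblasts and activated fibroblasts, all could be compared, and 8 were higher and none lower, with a median of 0.49 at day 10 and 0.44 at day 14. Besides Lrrc15 these were Itga11, the collagen-binding integrin alpha-11, Adam12, a membrane metalloprotease, Col8a1, Ddah1, Ccn4, Thbs2 and Palld. Adam12 stood at 142 against 58.9 CPM at day 10 and 97.8 against 48.1 CPM at day 14. Of 8 integrins compared of 17 listed, Itga11 was 1 of the higher, and Itga5, the fibronectin receptor chain, was also higher (1.09 at day 10 and 0.84 at day 14), and Itga10, an integrin of chondrocytes, was lower (-1.97 at day 10 and -1.27 at day 14). Cthrc1, a secreted glycoprotein of activated fibroblasts, was not counted (0.34 at day 10 and 0.49 at day 14).

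Part of the fibrous matrix list was higher. Of 34 matrix genes compared of 35 listed, Postn, Tnn (tenascin-W), Thbs2, Col8a1, Fbln2 and Lox, the enzyme that crosslinks collagen, were higher, Eln (elastin) was lower and 27 were not counted, with a list median of 0.36 at day 10 and 0.26 at day 14. Lox was at 795 against 403 CPM at day 10 and 604 against 379.7 CPM at day 14. Col1a1, the main fibrillar collagen of bone and tendon, was not counted, with log2 ratios of 0.22 at day 10 and 0.24 at day 14. Mfap5, a microfibril protein, was higher (393 against 129 CPM at day 10 and 637 against 345 CPM at day 14). Of 24 genes compared of 26 listed in the TGF-beta pathway, known for driving myofibroblasts, 1 was counted, the pseudoreceptor Bambi, which was lower (-0.71 at day 10 and -0.66 at day 14), and the list median was 0.04 at day 10 and -0.13 at day 14. Tgfb1 itself had ratios of 0.06 at day 10 and -0.17 at day 14.

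**Figure D3:**
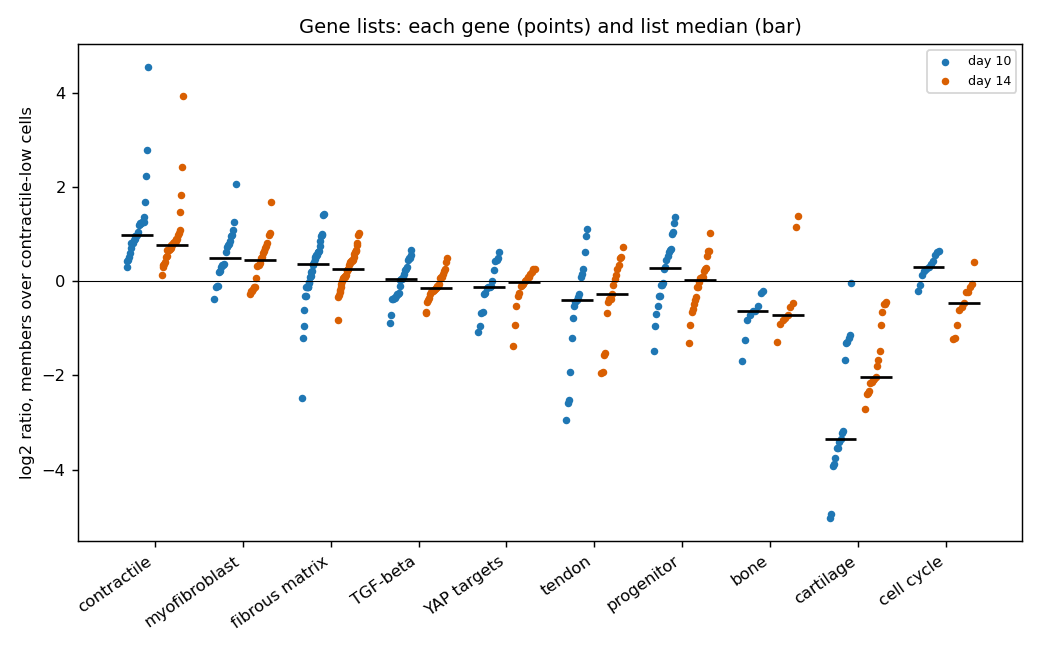
Log2 ratio of members over contractile-low cells for each compared gene of 10 lists (points, blue for day 10 and orange for day 14), with the list median as a black bar. The contractile list lies above 0 at both days and the cartilage list below 0.

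Tendon genes as a group were not higher in these Scx-bearing cells than in contractile-low cells. Of 17 compared of 21 listed, none was higher and 5 were lower, namely Comp, Chad, Cilp2, Wif1 and Ptgis, with a median of -0.39 at day 10 and -0.28 at day 14. Comp and Chad are matrix proteins that cartilage also uses. The whole list summed to 5395 and 5886 CPM in members and 11782 and 8538 CPM in contractile-low cells at day 10 and day 14. Acan-rich cells had the highest sums of these groups, 22100.5 and 18521 CPM. The part of cartilage genes in the negative median was not tested, and a lack of tendon genes is not read from it. Tnmd (tenomodulin), the late tendon gene, was at 241 against 302 CPM at day 10 and 457 against 324 CPM at day 14, so its ratio was negative at day 10 and positive at day 14. Thbs4, a tendon thrombospondin, had ratios of 0.16 at day 10 and 0.72 at day 14, Mkx, a tendon homeobox factor, of -0.19 at day 10 and -0.23 at day 14 on levels under 10 CPM, and Tnc of 0.96 at day 10 and 0.51 at day 14.

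Cartilage genes had the lowest median of all lists. Of 17 compared of 20 listed, 13 were lower and none higher, with a median of -3.36 at day 10 and -2.03 at day 14. Col2a1, the main cartilage collagen, was at 578 against 8704 CPM at day 10 and 889.8 against 3637 CPM at day 14, and Cnmd (chondromodulin) at 43.8 against 1349 CPM at day 10 and 71.4 against 469 CPM at day 14. The factors Sox5 and Sox6 were lower, while Sox9 (-1.13 at day 10 and -0.49 at day 14) and Acan (-1.30 at day 10 and -0.49 at day 14) were negative at both days without passing 1.5-fold at day 14. The 15 genes that were lower by most at the day of the smaller difference included Cnmd, Scrg1, Mia, Col9a1, Col9a3, Ucma and Hapln1, all known from cartilage, and the others were Ncmap, Nrk, Penk, Car8, Tfrc, Zim1, Rarres1 and Trpv4. Without cells at or above 10 UMIs of Col2a1 per 10,000 in either group, an alternative chosen after these values were seen, 83 genes were higher and 175 lower. Of the original genes, 67 of 162 and 111 of 218 were among them.

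Of 9 bone genes compared of 17 listed, 4 were lower, namely Sp7, Alpl, Ibsp and Pth1r, and none was higher. Ibsp, a sialoprotein of mineralizing matrix, was at 1308 against 4224 CPM at day 10 and 1493 against 3664 CPM at day 14. Runx2, the factor at the start of bone formation, had ratios of -0.21 at day 10 and -0.46 at day 14. Of 20 progenitor genes compared of 25 listed, Postn, Ptn and Thbs2 were higher and Gli1 and Nt5e lower, with a median of 0.28 at day 10 and 0.03 at day 14. Postn and Ptn are genes by which the study named its Postn cluster in these libraries, and their direction is not independent evidence. Ogn, another gene of that cluster, was not counted, with ratios of -0.31 at day 10 and 0.22 at day 14. Gli1, the hedgehog target that marks another skeletal progenitor, was at 6.21 against 17.3 CPM at day 10 and 6.36 against 15.9 CPM at day 14, with log2 ratios of -1.48 at day 10 and -1.32 at day 14.

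In stroma genes, Mfap5 was higher and Gas6 and Cxcl14 lower of 10 compared of 17 listed. Igf1 (-0.93 at day 10 and -0.40 at day 14) and Abi3bp (-1.17 at day 10 and -0.41 at day 14) were negative at both days. Of 18 growth factors compared of 38 listed, Pdgfc was higher (0.87 at day 10 and 0.59 at day 14) and Igf2 lower (-3.09 at day 10 and -1.51 at day 14). Among Schwann cell genes Ncam1 was higher and S100b lower, with Sox10 at 0 at day 10. Of 16 immediate early and heat shock genes, which digestion of tissue is known to raise, Dnajb1 was lower (-1.61 at day 10 and -1.33 at day 14) and none was higher. None of 11 cell cycle genes compared of 16 listed was counted, and their summed level was 421 against 343 CPM at day 10 and 203 against 257 CPM at day 14. Of 5 pericyte genes compared, Cspg4 and Ndufa4l2 were lower. Members were held under the Rgs5 limit and contractile-low cells were not, with 5 of 1544 and 27 of 3108 of the latter at or above it. The pericyte list also summed to 914 and 923 CPM in Acan-rich cells, so nothing on pericytes is read from this. Of 14 blood cell genes 3 could be compared and none was counted, and the list summed to 20.1 and 188 CPM in members and 14.5 and 244 CPM in contractile-low cells.

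A group of granzyme genes, serine proteases best known from cytotoxic lymphocytes, was among the higher genes. Gzmc, Gzmd and Gzme lie together on chromosome 14, and reads may be shared among such close copies, so their separate values are uncertain. Gzmd was at 90.8 against 3.46 CPM at day 10 and 36.7 against 11.4 CPM at day 14, Gzme at 112 against 4.89 CPM at day 10 and 72.6 against 32.6 CPM at day 14 and Gzmc at 35.6 against 4.84 CPM at day 10 and 24.0 against 12.6 CPM at day 14. The UMIs sat unevenly: at day 10 a single member held 384 of 731 Gzmd UMIs, and without it the level was 43.1 CPM. Counting cells lessens that weight. After thinning, a UMI of any of the 3 was in 23.1% (19.3 to 27.2%) of members, 3.55% (2.67 to 4.61%) of contractile-low cells and 0.907% (0.613 to 1.29%) of Acan-rich cells at day 10. The shares at day 14 were 21.5% (18.7 to 24.6%), 8.81% (7.79 to 9.92%) and 1.51% (1.11 to 2.00%). These intervals take cells as units within 1 library and say nothing on how libraries or animals vary. Unthinned shares in members were 40.0% and 33.2%.

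Few UMIs of T cell and natural killer cell genes were found beside them. The sort removed CD45-positive cells and the rule removed cells with a Ptprc UMI. The choice thus fixes this scarcity in part, and nothing on the source of the granzyme UMIs is read from it. Across all members at both days Cd3e, the T cell receptor chain, had 0 UMIs, as had Gzma, and Nkg7 and Prf1 had 1 UMI each. Trbc2, a T cell receptor beta constant gene, had 4 UMIs in members with a granzyme UMI and 4 in those without at day 10, and 15 and 14 at day 14. The 189 members with one of these granzyme UMIs at day 10 had Scx at 359.9 against 373 CPM in the 283 without, and more Cnn1 (91.8 against 42.7 CPM). At day 14 the 269 with and the 541 without had Cnn1 at 46.6 against 34.8 CPM. Gzmb had 23 UMIs in the former and 0 in the latter at day 10, and 19 and 1 at day 14. Median depth was 18399 against 16747 UMIs at day 10, and its part in these differences was not tested. Fcer1g, an Fc receptor chain of immune cells, had 71 UMIs in members with a granzyme UMI and 27 in those without at day 10, and 28 and 19 at day 14. Il2rg, the common cytokine receptor gamma chain, was higher in members than in contractile-low cells (21.1 against 4.93 CPM at day 10 and 10.7 against 4.46 CPM at day 14). After thinning, Il2rg had a UMI in 7.63% of members and 8.82% of Rgs5-rich cells at day 10. At day 14 the shares were 4.74% and 13.5%, so Il2rg was not particular to the members. A UMI of Gzmc, Gzmd or Gzme was in 0% and 0.562% of Rgs5-rich cells after the same thinning.

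**Figure D4:**
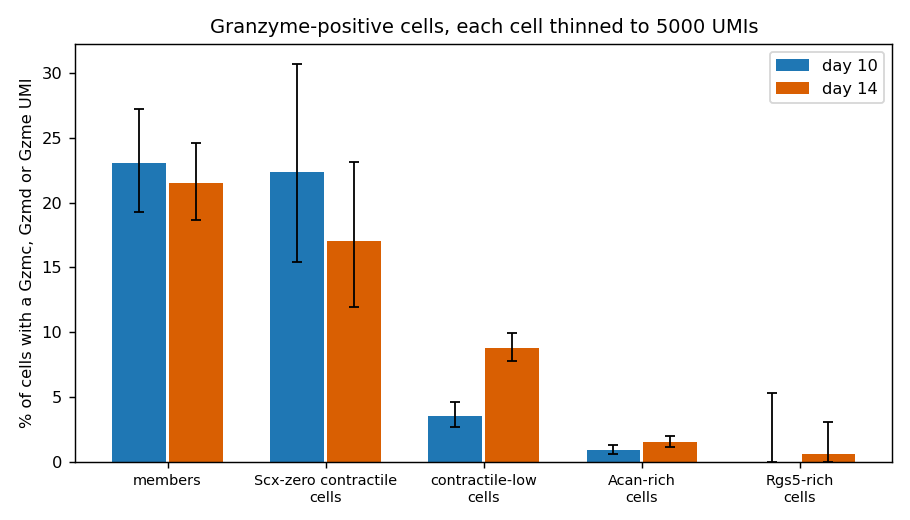
Share of cells with a UMI of Gzmc, Gzmd or Gzme, with each cell thinned to 5000 UMIs, by group and day (blue, day 10, and orange, day 14). Bars start at 0 and whiskers are exact 95% binomial intervals for counting error. Members and Scx-zero contractile cells stand above contractile-low, Acan-rich and Rgs5-rich cells at both days.

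The rest of the 15 highest genes were Stmn4, a microtubule-binding stathmin, at 8.82 against 2.81 CPM at day 10 and 25 against 6.70 CPM at day 14, the amine oxidase Aoc3 (2.19 at day 10 and 1.35 at day 14), Glipr2 (1.60 at day 10 and 1.16 at day 14) and the developmental factor Sox11 (2.78 at day 10 and 1.10 at day 14).

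The contractile level varied over the members, and other genes varied with it. Among Aspn-rich cells with a Scx UMI and under the Rgs5 limit, Lrrc15 was at 61.5 CPM where the 3 contractile genes gave under 2 UMIs per 10,000, 281 from 10 to 20, and 330.1 at 50 or more at day 10. The same levels were 72.6, 245 and 353 CPM at day 14. Scx, of which each of these cells had at least 1 UMI, went from 172 through 344 to 442 CPM at day 10 and from 175 through 312 to 521 CPM at day 14. Lrrc15 was higher at each step named, at each day, and the levels of Scx, a gene of the rule, describe the choice.

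Postn took a different course at day 10. It was at 2432 CPM in the lowest level, 5195 from 8 to 10, and 5102 at 50 or more, so cells above the threshold were at the level of those just below it. At day 14 the level was higher with each step, from 3289.8 CPM below the threshold to 4749 at the top. Ptch1, a hedgehog receptor that is also its target, went from 139 to 29.3 CPM at day 10 and from 164 to 35.9 at day 14. Thbs4 within the members was at 424 CPM from 10 to 20 and 79.5 CPM at 50 or more at day 10, but at day 14 these were 236 and 254 CPM.

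Cells just inside and just outside the threshold had similar Lrrc15. At day 10 the 39 cells from 10 to 12 had Lrrc15 at 222 CPM and the 32 cells from 8 to 10 had 199. At day 14 the 83 and 84 such cells had 238 and 203 CPM. Postn in the same cells was 4972 against 5195 CPM at day 10 and 3341 against 3289.8 CPM at day 14. The members are thus a range of a graded level, cut at a threshold.

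**Figure D5:**
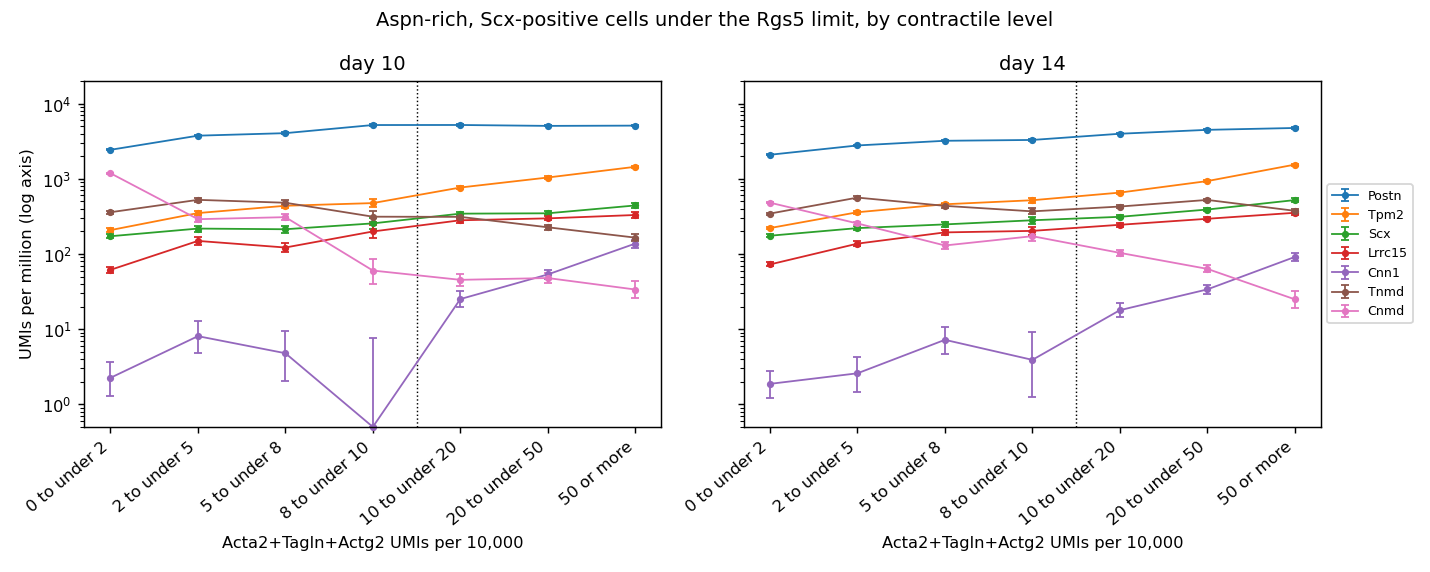
Levels (CPM, log axis) of 7 genes in Aspn-rich cells with a Scx UMI, by the summed UMIs of Acta2, Tagln and Actg2 per 10,000, at day 10 (left) and day 14 (right). Members lie right of the dotted line, bars are exact 95% Poisson intervals, and a level of 0 sits on the bottom line. Tpm2 and Lrrc15 climb across the line and Cnmd declines.

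Members were also divided by their Scx UMIs. At day 10 Tnmd was at 56.2 CPM in the 98 members with 1 Scx UMI, 204 in the 64 with 2, and 295 in the 310 with 3 or more. At day 14 it was 349, 208 and 519.9 CPM in 148, 113 and 549 members. Tnmd was highest with 3 or more Scx UMIs at both days, but not in order at day 14. C1qtnf3 encodes a secreted protein of the C1q and TNF family. Its level was 2251, 2806 and 3456 CPM with 1, 2 and 3 or more Scx UMIs at day 10. At day 14 it was 2710.0, 2706 and 3914 CPM, so it did not differ between 1 and 2 Scx UMIs there. Median depth went from 14887 to 18819 UMIs over the same division at day 10.

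To see what went with Scx apart from the contractile genes, members were set against contractile Aspn-rich cells under the Rgs5 limit without a Scx UMI (137 and 225 cells). Of 7763 genes compared, 31 were higher in members (0.399%) and 89 lower (1.15%). The contractile list had a median of 0.10 at day 10 and 0.09 at day 14, where all genes gave -0.01 and -0.03, with Cnn1 higher (0.62 at day 10 and 1.19 at day 14) and Mylk lower among 28 compared. Of 17 tendon genes, Tnmd and Thbs4 were higher and none lower. Tnmd was at 241 against 159.9 CPM at day 10 and 457 against 145 CPM at day 14, and Thbs4 at 227 against 56.3 CPM at day 10 and 250.5 against 147 CPM at day 14. Tnn, Cthrc1 and Ddah1 were higher as well, with Tnn at 1079 against 633 CPM at day 10 and 887 against 569 CPM at day 14.

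By the smaller of the 2 ratios, the 5 highest genes were Zfp185, Gzmd, Barx2, Angptl1 and Duoxa1. Gzmd was at 90.8 against 41.1 CPM at day 10 and 36.7 against 15.2 CPM at day 14, but without the member that held 384 of its UMIs the day 10 level was 43.1 CPM. After thinning, Gzmd had a UMI in 10.2% (7.62 to 13.4%) of members and 8.80% (4.48 to 15.2%) of Scx-zero cells at day 10. At day 14 it was in 6.67% (5.02 to 8.65%) and 5.85% (2.96 to 10.2%), so the shares were close at both days. Zfp185, an actin-binding LIM protein, was at 36.8 against 11.5 CPM at day 10 and 27.8 against 12.3 CPM at day 14. In the other direction came Gm13889, Col4a1, Col4a2, Cygb and Cxcl5. Col4a1 and Col4a2 encode the chains of basement membrane collagen, and Col4a1 was at 39.6 against 305 CPM at day 10 and 12 against 99.3 CPM at day 14. Myh11 was at 3.13 and 13.8 CPM and Mcam at 12.5 and 7.06 CPM in the Scx-zero cells. The pericyte list summed to 533 and 527 CPM there, and the part of mural-type cells below the Rgs5 limit was not tested. Median depth was 14304 and 11396 UMIs in Scx-zero cells, lower than in members, and a cell with fewer UMIs is more likely to show no Scx.

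Of the 3 groups compared with members, Rgs5-rich cells, which also express contractile genes, differed in the most genes. Their median depth was 12529 and 9262 UMIs, below that of the members. Of 7900 genes compared, 938 were higher in members (11.9%) and 1106 lower (14%). Over all genes the median log2 ratio was -0.03 at day 10 and -0.09 at day 14. The Rgs5-rich cells were picked by a pericyte gene on which members had to be low, and a gene near 0 in members could reach the limit of 10 CPM only through the Rgs5-rich cells. All 14 pericyte genes and 7 of 9 mature smooth muscle genes came out lower, which this choice fixes in part, and nothing is read from these counts. The contractile list split, with 7 genes higher, among them Zyx and Actg1, 7 lower, among them Myl9, Mylk and Cald1, and 17 not counted. Cnn1 was at 63.1 against 55.4 CPM at day 10 and 39.0 against 52.2 CPM at day 14. Of 34 matrix genes 26 were higher in members, with a median of 1.36 at day 10 and 1.78 at day 14, and of 20 myofibroblast genes 15, with Lrrc15 at 299 against 11.7 CPM at day 10 and 286 against 14.0 CPM at day 14. Of 15 tendon genes 10 were higher. Members had to be rich in Aspn, a gene of fibrous tissue, and Rgs5-rich cells did not. That choice fixes the direction of the matrix, myofibroblast and tendon lists in part, and nothing on identity is read from it. A gene near 0 in Rgs5-rich cells could likewise reach 10 CPM only through the members. By the smaller of the 2 ratios, Gzme, Angptl1, Crabp2, Thbs4 and Tnn were the 5 highest, and the 5 lowest were Dlk1, Kcnj8, Tinagl1, Higd1b and Myh11. Higd1b, a pericyte gene, had 5 and 2 UMIs in all members.

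Between the 2 days no contractile gene of the members reached a 2-fold difference. At 2-fold, 34 of 7653 genes were higher at day 14 (0.444%) and 89 lower (1.16%). None of 28 contractile genes, 20 myofibroblast genes and 34 matrix genes was counted, and the log2 ratio of day 14 over day 10 was -0.06 for Lrrc15, -0.69 for Cnn1 and -0.24 for Postn. The median over all genes was -0.02. Of 11 cell cycle genes Mki67, Top2a, Birc5, Cenpf and Tpx2 were lower, and Mki67, a marker of cycling cells, was at 23.5 CPM at day 10 and 3.88 at day 14. The contractile-low cells had a log2 ratio of -1.24 for Mki67 over the same days.

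Ankrd1 was lower by most, at 25.5 CPM at day 10 and 1.01 at day 14. Ccn2, a known target of YAP, was lower with a log2 ratio of -1.59, against -1.23 in contractile-low cells. Ifi27l2a, Cxcl1 and Cxcl2 were lower in both groups (-2.47 and -2.20 for Cxcl1). Higher at day 14 were Rspo2, a Wnt agonist, at 3.35 and 19.9 CPM, Ccn3 (1.96) and Angptl1 (1.29). The neutrophil genes S100a8, S100a9 and Camp had the largest ratios of all, S100a8 going from 0.372 to 55.3 CPM. In contractile-low cells S100a8 went from 0.822 to 73.9 CPM, and in Acan-rich cells the 14 blood cell genes summed to 47.7 and 125 CPM at the 2 days. The part of free RNA in this was not tested. Of 17 cartilage genes Ucma, Matn4, Snorc and Col10a1 were higher at day 14 in members, Snorc with a log2 ratio of 1.24 against -0.24 in contractile-low cells. Of 9 bone genes Bglap was counted as higher through 1 cell, which held 1500 of its 1801 UMIs at day 14. Without the top cell of each day its level was 39.7 CPM at day 10 and 23.3 at day 14, the opposite direction. Of 17 tendon genes Dpt was higher and Egr2 and Prg4 were lower, and Bmp2, Grem1, F3 and Atf3 were lower.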

How the data were processed

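For each of the 3 libraries the authors deposited a table of UMI counts (genes by cell barcodes), already reduced to called cells. The labels name 10x 3' v2 chemistry, Cell Ranger 3.0 and mm10, the matrix headers give Cell Ranger 3.1.0, and the methods name a later kit and Cell Ranger release. These disagreements were not resolved. The members and gene lists were chosen with earlier results of these data known.

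UMIs were summed over the cells of a group within a library and divided by the group's total (CPM). Ratios of CPM carry exact binomial 95% intervals, levels exact Poisson and shares exact Clopper-Pearson intervals. A group at 0 UMIs took a floor of 3 counts. Genes averaging at least 10 CPM were compared, without the 7 genes of the rule, and counted as higher or lower at 1.5-fold at both days (2-fold between days). Named genes were those of the lists, the rule's genes, and the 15 (contractile-low) or 5 genes with the largest ratio, taken at the day where it was smaller. Further genes, among them Ptch1, C1qtnf3, Gzmc and Trbc2, were picked by hand. Thinning drew 5000 UMIs a cell without replacement and left out shallower cells (13 and 30 members). Libraries held 113127788 to 195661880 UMIs. Scrublet (scanpy 1.11.5) marked 0 cells at its own threshold and so did not work, and doublets were not removed. Python 3.11.15, numpy 2.4.6, scipy 1.17.1 and pandas 2.3.3 were used. The script was tested on simulated data. Gene positions are from GENCODE M21 and promoters from RefSeq GRCm38.p6.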

Additional observations from a re-analysis of the deposited data

Results flagged for a closer look

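For 19 genes of the lists the log2 ratio of members over contractile-low cells lay on opposite sides of 0 at the 2 days, and the 95% interval of each left out 0. With 1 library a day the difference between days was not tested. The share of all compared genes that did the same was not worked out, so the number 19 is not read as a result. The intervals cover counting error only, and for an abundant gene they can leave out 0 at a small difference. Bglap and Bglap2, osteocalcin genes of mature osteoblasts, had ratios of -0.62 and 1.39 and of -0.24 and 1.14 at day 10 and day 14. A single member held 1500 of 1801 Bglap UMIs and 770 of 1078 Bglap2 UMIs at day 14, and without it their levels were 23.3 and 23.9 CPM against 53.1 and 37.8 in contractile-low cells. Of the cell cycle genes, 5 had a positive ratio at day 10 and a negative one at day 14, with Mki67 0.43 and -0.93, Tpx2 0.62 and -0.56, Birc5 0.64 and -0.47, Hmgb2 0.21 and -0.22, Pcna 0.38 and -0.23. Ccnb2 was positive at both days (0.55 and 0.40), and none of the 11 compared passed 1.5-fold in the same direction at both days. The same order held, in log2 ratios at day 10 and day 14, for Bmp2 0.41 and -0.45, Cxcl12 0.69 and -0.33, Pdgfrb 0.30 and -0.12, Tppp3 0.61 and -0.28, Vcam1 0.45 and -0.40. Genes lower in members at day 10 and higher at day 14 were Bgn -0.11 and 0.0544, Ccn1 -0.15 and 0.19, Dpt -0.39 and 0.34, Emilin1 -0.13 and 0.11, Jund -0.11 and 0.12, Ogn -0.31 and 0.22, Tnmd -0.33 and 0.49.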

How the results depend on the processing

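The share of Aspn-rich cells that were members rests on the thresholds. At day 10 and day 14 it was 27.9% and 26.8% with 5 contractile UMIs per 10,000, 14.1% and 11.6% with 20, 17.6% and 16.9% with Aspn at 5, 26.6% and 22.7% with Aspn at 20, 17.2% and 15.8% with 2 Scx UMIs, 15.8% and 14.9% after thinning to 5000 UMIs and 28.9% and 24.7% among cells with Postn at 10 or more. Without the upper limit on genes it was 24.3% at day 10. Genes higher over contractile-low cells numbered 106 with Aspn at 20, 93 with Postn at 10 or more in both groups and, in an alternative chosen after seeing the data, 83 without Col2a1-rich cells. A mean of at least 50 CPM left 83 higher and 90 lower against contractile-low, 17 and 18 against Scx-zero, 379 and 358 against Rgs5-rich cells, and 13 and 20 between days, since fewer genes were compared. At 2-fold there were 25 higher and 84 lower against contractile-low cells, with 6 contractile genes higher, 2 and 20 against Scx-zero and 521 and 660 against Rgs5-rich cells. Thinning gave 63 genes higher at day 14, and the cause was not tested. All other counts of genes stayed within 1.5 times under each setting. Of 47 single genes followed under these settings, those counted as higher or lower kept their direction, and Bglap, Thbs4 and Tnmd, which were not counted, changed sign under at least 1. Removing Scrublet's calls changes nothing because it marked no cell. Leaving out the 6% of barcodes with the highest scores, chosen after seeing the data, was run in its place and gave 163 higher and 219 lower genes against contractile-low cells. No paired analysis was possible because each day has 1 library. Depth limits genes of few UMIs, and no library can be left out without losing a day.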
